A study of Homo sapiens with 12 samples.

Results

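HCC1806 cells, a basal-like triple-negative breast cancer (TNBC) line, were transfected with a pool of 4 small interfering RNAs (siRNAs) against MLK4 (siMLK4) or with a non-targeting control siRNA (siNT), and 24 h later both groups received 1 μM doxorubicin for a further 24 h. The comparison described here is siMLK4 against siNT under doxorubicin. It rests on 6 of the 12 mRNA libraries of the series, 3 per group, and on all 17013 genes in the table. The remaining 6 libraries are siNT and siMLK4 cells that received vehicle, labelled DMSO, and they are used where the drug-free difference is set beside the one under drug. The sources differ on these libraries, since their titles say time 0, the methods call them untreated and the supplement can be read as 24 h of DMSO. If they were harvested before the doxorubicin libraries, drug and longer knock-down cannot be told apart where the conditions are compared. All libraries come from 1 line, the knock-down is transient, and the 4 siRNAs were delivered together, so that no single siRNA can be assessed. The study's methods state triplicate transfection, but not whether the triplicates were made on separate days or passages, and p-values measure the spread between these samples of a single line. The doxorubicin libraries held 18384153, 16759025 and 17275064 reads on the listed genes for siNT and 18901864, 19302248 and 18044286 for siMLK4.

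MLK4, encoded by MAP3K21, is a mixed-lineage kinase. Such kinases phosphorylate MAP2Ks and thereby feed the JNK, p38 and in some cells the ERK pathway, whose end points include AP-1 transcription factors. Doxorubicin poisons topoisomerase II and leaves DNA double-strand breaks, which activate checkpoint kinases, arrest the cell cycle and switch on inflammatory genes through NF-κB. The line was checked against its markers on a per-length scale (TPM, reads per transcript length scaled to the same sum in every library). EPCAM lay between 751 and 1221 TPM and KRT5 between 384 and 600.5 TPM in the 6 doxorubicin libraries, whereas ESR1 did not exceed 1.261 TPM and PGR did not exceed 0.181 TPM. ERBB2 lay between 42.1 and 58.2 TPM. Of 5 leukocyte, 4 endothelial and 6 fibroblast markers, 2, 1 and 3 were in the table. The most abundant of these were CD14 at up to 4.61 TPM, VWF at up to 1.01 TPM and COL1A1 at up to 10.7 TPM, and none of the 6 was called between the groups. The basal keratin markers KRT6A, KRT14 and KRT17 were called lower in siMLK4 cells, as described below with the other keratins.

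The siRNA sequences are shown because a pool acts on other transcripts too, through the seed at the 5′ end of its guide strand. The sense strands, with the 7 bases that pair with the seed of the guide (its bases 2 to 8) in capitals, were:
siMLK4_1: ggaaagaugcuCAGAGAGauu
siMLK4_2: aggagaagcccAAGGUAAauu
siMLK4_3: agaagaaacgaGAGGGAAuuu
siMLK4_4: agaacagauugCAAAGAAauu
Their 19-base targets all lie in coding sequence of MAP3K21 on chromosome 1 of GRCh38, in exon 9 for siMLK4_1 (chr1:233379030-233379048) and siMLK4_3 (chr1:233379276-233379294), in exon 5 for siMLK4_2 (chr1:233362204-233362222) and in exon 7 for siMLK4_4 (chr1:233376047-233376065). The 3′UTR of MAP3K21 itself holds none of the 4 seed matches.

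MAP3K21 (ENSG00000143674, + strand, chr1:233327724-233385148) had 758, 856 and 772 normalized reads in siNT and 113, 138 and 94.4 in siMLK4 cells with doxorubicin, where normalized reads are reads recovered from the table after scaling with the authors' size factors. The groups did not overlap, and the mean of the knock-down libraries was 14.5% of the control mean. In what follows a replicate named without a treatment is a doxorubicin library. The log2 difference was −2.37 (SE 0.12, limma adjusted p = 1.1e-07). Here and below, log2 differences are siMLK4 minus siNT on the authors' variance-stabilized scale, which understates the differences of genes with few reads.

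Between the groups, 950 genes, or 5.58% of those tested, passed an adjusted p under 0.01 with an absolute log2 difference over 0.75 in limma and are called here. Of these, 498 were lower (2.93%) and 452 were higher (2.66%) in siMLK4 cells, and the 3 libraries of one group did not overlap those of the other for any of them. The absence of overlap alone was common, since 21.1% of all genes had it in the lower and 22.8% in the higher direction. In reads, the siMLK4 mean was below 50% of the siNT mean for 338 of the lower genes and below 25% for 60, and it was over 2-fold for 332 of the higher genes and over 4-fold for 40. When libraries were scaled by their totals, the split became 396 lower and 623 higher. This scaling shifted the differences by a median of 0.076 over all genes. A further setting, chosen after seeing the data and called the GC correction below, removed the trend of each library on transcript GC content. The list counts below are read against the shares of all genes.

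**Figure D1:**
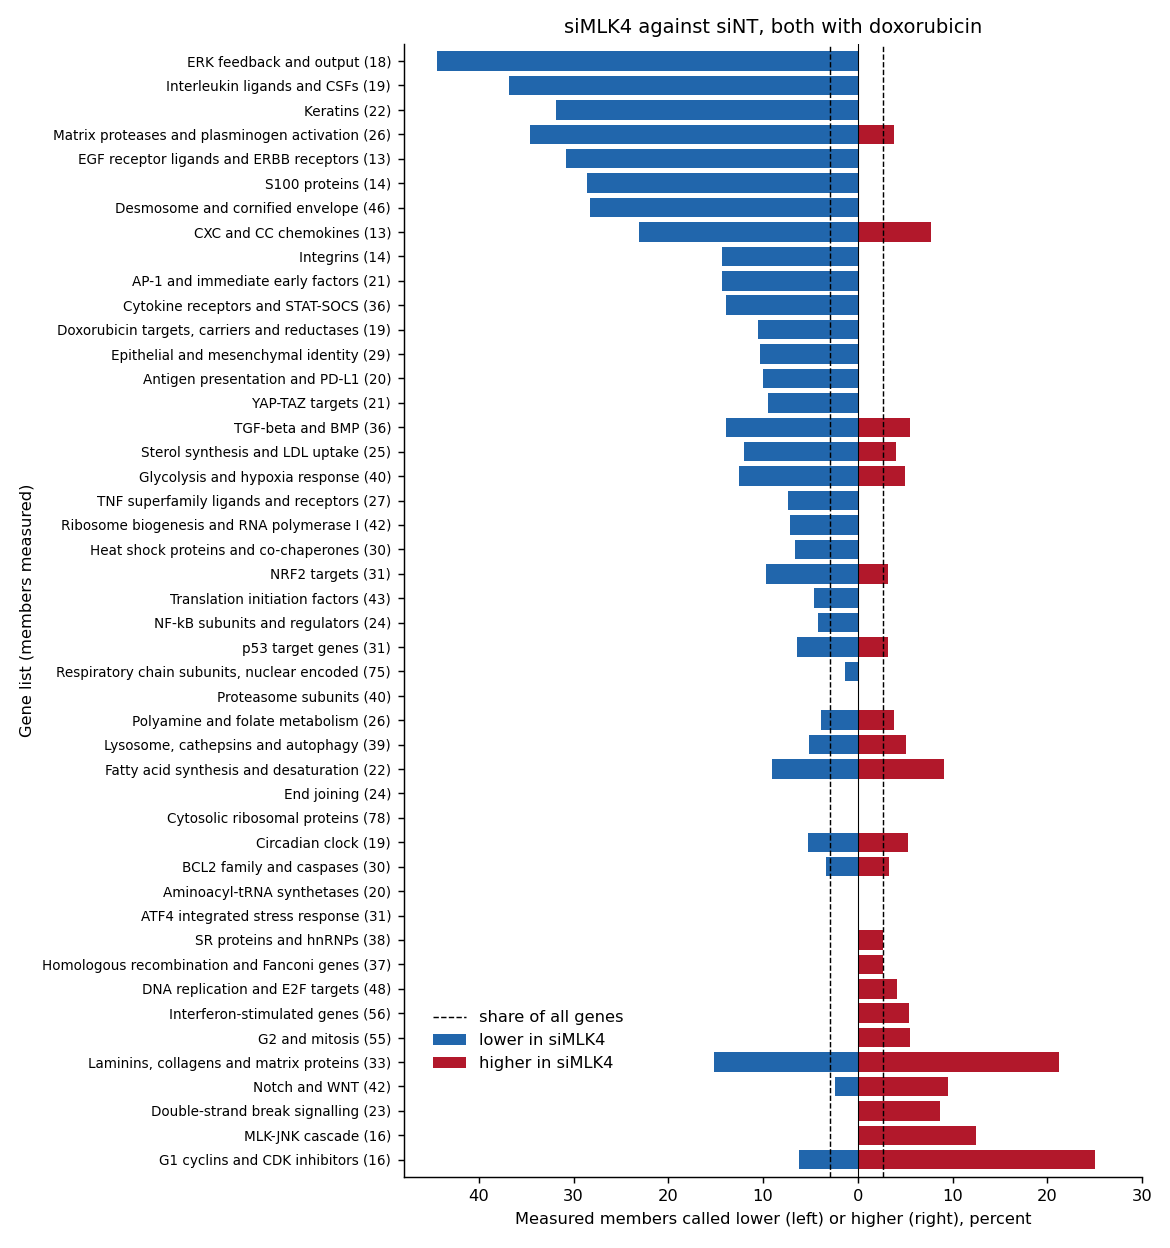
Share of the measured members of each gene list that were called lower (blue, to the left) or higher (red, to the right) in siMLK4 against siNT cells with doxorubicin, in percent, with the number of measured members in brackets and dashed lines at the shares of all genes (2.93% lower, 2.66% higher). Apart from families formed after values were seen, the ERK feedback list has the longest bar on the left (8 of 18 members). The G1 cyclins have the longest on the right (4 of 16).

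Several ERK feedback and output genes and a few AP-1 and immediate early genes were lower in siMLK4 cells. Of 18 measured ERK feedback and output genes, 8 were called lower (44.4%) and 0 higher, and the list median was −0.64, against 0.02 for all genes. DUSP6, a phosphatase that inactivates ERK, had 1160.0, 1164 and 1203 normalized reads in siNT and 479, 545 and 509.9 in siMLK4 cells (−1.13, SE 0.12, adjusted p = 2.5e-05). SPRY4, an inhibitor of receptor tyrosine kinase signalling, had 539, 651 and 669 against 241, 279 and 228 (−1.16, SE 0.14). The 6 other called members were FOSL1, DUSP4, DUSP5, ETV4, EPHA2 and PHLDA1, and library totals called 6 of the list. PHLDA1 was not called without any 1 of the siNT doxorubicin libraries or without siMLK4 replicate 1 or 2 (−0.64 to −0.80), nor with scaling by trimmed means of M values (TMM), library totals or the GC correction, and EPHA2 not with library totals. Of 21 AP-1 and immediate early genes, 3 were lower and 0 higher. FOSL1 is a member of both lists, and the other FOS and JUN genes were not called. FOSL1, the AP-1 subunit FRA-1, had 1123, 1181 and 1306 reads in siNT and 368, 422 and 437 in siMLK4 cells (−1.45, SE 0.16), and the growth-promoting factor MYC had 3257, 3271 and 3758 against 1061, 1018 and 1408 (−1.53, SE 0.14, adjusted p = 7.7e-06). The siMLK4 means of FOSL1 and MYC were 34.0% and 33.9% of the respective siNT means. MAFF (−0.96) was the third, and its call was lost on leaving out any 1 of the siNT doxorubicin libraries or siMLK4 replicate 1 or 2, with values of −0.89 to −0.98.

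Some growth factors that bind EGF receptors were also lower. Of 13 ligands and receptors of this family, 4 were lower and 0 higher, all of them ligands: AREG, EREG, NRG1 and TGFA. AREG, amphiregulin, fell from 1322, 1164 and 1348 normalized reads in siNT to 404, 288 and 496 in siMLK4 cells (−1.60, SE 0.36, adjusted p = 0.0057). Its groups did not overlap, but its standard error, which rests on all 12 libraries, was large. The vehicle libraries spread widely, at 5763, 1728 and 3522 reads in siNT and 341, 407 and 906 in siMLK4 cells. AREG was not called without any 1 of the siNT doxorubicin libraries or without siMLK4 replicate 1 or 2 (−1.41 to −1.66). NRG1, the neuregulin that binds ERBB3 and ERBB4, had 940.4, 1077 and 1156 reads against 481, 488 and 569 (−0.97, SE 0.13, adjusted p = 0.00014), and its call held without each library in turn. EREG (−1.06) was not called without siNT replicate 3 or siMLK4 replicate 1 (−0.97 and −1.01), nor TGFA (−0.78) without siNT replicate 2 or 3 (−0.74 and −0.72), with library totals (−0.69) or after the GC correction (−0.74). Leaving out siNT replicate 3 kept 1 of the 4 calls.

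Secreted inflammatory mediators made up a further group. Of 19 measured ligands of the IL1, IL6, IL12 and IL20 families and colony stimulating factors, 7 were called lower (36.8%), 0 were higher, and the list median was −0.43. IL24, a cytokine of the IL20 family, had 358, 413 and 307 normalized reads in siNT and 7.63, 10.8 and 10.9 in siMLK4 cells, and its difference of −3.07 (SE 0.18, adjusted p = 2.7e-07) was the lowest among all called genes. Its mean in siMLK4 cells was 2.72% of that in siNT cells. IL6, a cytokine that signals through STAT3, had 468, 483 and 551 reads against 92.4, 65.0 and 172 (−1.85, SE 0.21, adjusted p = 3.1e-05). The alarmin IL1A had 1003, 1119 and 1126 reads against 300.2, 327 and 380.1 (−1.55, SE 0.20). IL1B, a cytokine released after cleavage by caspase 1, had 223, 258 and 266 reads against 66.1, 72.5 and 93.4 (−1.26, SE 0.12). The siNT and siMLK4 libraries were clearly separated for these 4 genes, and siMLK4 replicate 3 was the highest siMLK4 library for each. LIF (−1.10), IL20 and CSF2 were the other called members. IL20 was at 17.5, 18.3 and 16.2 normalized reads in siNT cells, whereas no siMLK4 library held more than 1 read. The call of CSF2 (−0.76) held for 4 of the 12 libraries left out one at a time and was lost without siNT replicate 1 or 3, any 1 of the siMLK4 doxorubicin libraries, siNT vehicle replicate 2 or siMLK4 vehicle replicate 1 or 2 (−0.69 to −0.82). With the replicate number as a block CSF2 was not called either (limma adjusted p = 0.0125), nor with TMM scaling or the GC correction. IL12A, which the study names, had 52.6, 48.9 and 51.7 reads against 21.2, 17.5 and 15.4, and it missed the fold threshold at −0.71 (SE 0.11, adjusted p = 0.00031).

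Chemokines differed by member. Of 13 in the table, 3 were lower and 1 was higher. The neutrophil attractant CXCL8 had 1359, 1541 and 1492 reads in siNT and 347, 243 and 544 in siMLK4 cells (−1.88, SE 0.26, adjusted p = 0.0002), and CXCL1, which uses the same receptor, had 442, 452 and 534 against 146, 105 and 199.6 (−1.42, SE 0.20). CXCL6 was lower by 0.80, a call that was lost without siMLK4 replicate 2 (−0.71) and after the GC correction (−0.73). In contrast CXCL10, an interferon-induced T cell attractant, had 13.8, 13.2 and 18.2 reads in siNT and 87.3, 72.5 and 109 in siMLK4 cells (1.29, SE 0.12, adjusted p = 6.8e-06). Among 36 cytokine receptors and STAT or SOCS genes, 5 were lower and 0 higher. IL1RL1, the receptor of IL33, had 215, 258 and 188 reads against 16.1, 21.7 and 23.6 (−2.10, SE 0.14), and IL7R had 415, 541 and 532 against 100.1, 100.1 and 121 (−1.81, SE 0.15). The remaining 3 were IL1R2, IL6R and IL1RAP, and IL1RAP was not called without siNT replicate 2 or 3 or siMLK4 replicate 1 (−0.67 to −0.77), with library totals or after the GC correction. Of 27 TNF superfamily genes, TNFSF15 (−1.51, SE 0.19) and TNFRSF8 (−1.27, SE 0.21) were lower and 0 were higher.

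Of 24 NF-κB subunits and regulators, 1 was called lower and 0 were higher, with a list median of −0.09. It was TNFAIP3, the deubiquitinase A20, at 794, 1123 and 1038 reads in siNT and 487, 505 and 511 in siMLK4 cells (−0.89, SE 0.16, adjusted p = 0.0014). Of 20 antigen presentation genes, the PD-1 ligands CD274 (−0.76, SE 0.16, adjusted p = 0.003) and PDCD1LG2 (−0.80, SE 0.12) were called lower and 0 were higher, but neither was called after the GC correction. CD274 was also not called with TMM scaling or library totals or without siNT replicate 2 or 3 or siMLK4 replicate 1 or 3 (−0.70 to −0.78), and PDCD1LG2 not without siNT replicate 3 (−0.70).

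**Figure D2:**
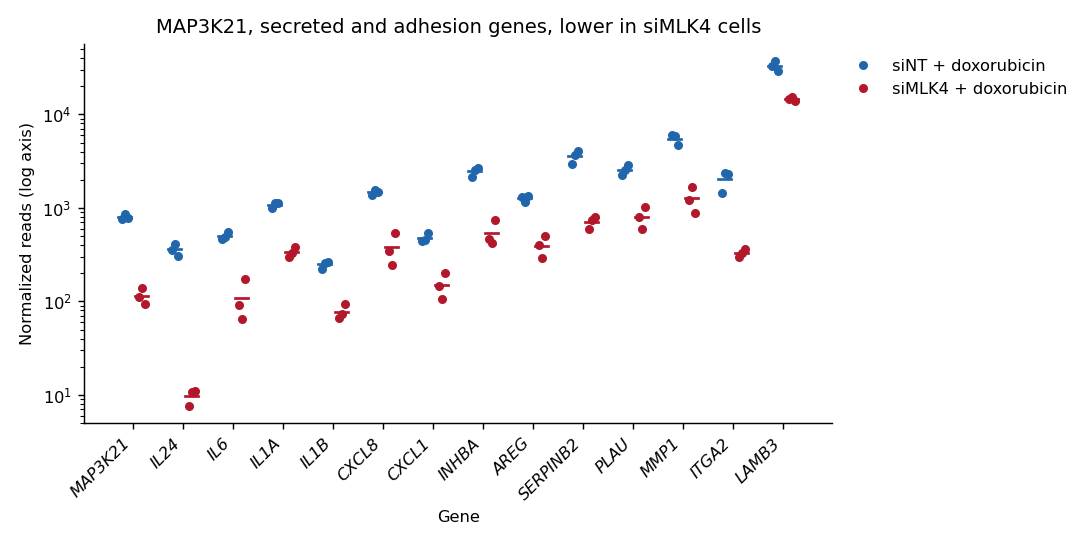
Normalized reads (log axis) of MAP3K21 and 13 genes for secreted or adhesion proteins in the 3 siNT (blue) and 3 siMLK4 (red) libraries with doxorubicin; points are libraries and bars are group means. In each gene all siMLK4 points lie below all siNT points, and the gap is widest for IL24, with 358, 413 and 307 against 7.63, 10.8 and 10.9 reads.

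Promoters of the lower genes were searched for AP-1 and NF-κB words, because these factors stand at the end of the pathways described above. In RefSeq windows of GRCh38.p14 that run from 250 bases before to 50 bases after the start of a gene, the AP-1 word TGACTCA or TGAGTCA, which are each other's reverse complement, was found in 27 of 365 lower genes (7.40%), 8 of 336 higher genes (2.38%) and 397 of all 12031 genes with a window (3.30%). The NF-κB consensus GGGRNYYYCC (R is A or G, Y is C or T and N any base), searched on both strands, was found in 9.59%, 7.74% and 8.94%, respectively. Only exact matches to either word were counted. Windows of 11 named lower genes were read, and neither word was found in those of IL24, IL1B, PLAU, SERPINB2, INHBA and ITGA2. Stretches of 30 bases are shown for the 5 that hold a word, which is in capitals:
CXCL8 (+ strand, chr4:73740422-73740451): ggaagtgtgaTGACTCAggtttgccctgag
IL6 (+ strand, chr7:22727117-22727146): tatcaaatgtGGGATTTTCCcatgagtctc
CXCL1 (+ strand, chr4:73869304-73869333): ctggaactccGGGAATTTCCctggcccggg
IVL (+ strand, chr1:152908413-152908442): atgcctgtggTGAGTCAggaaggggttaga
SPRR2A (− strand, chr1:153057690-153057719): atggcttctgTGAGTCAggagagcttaacc
CXCL8, IVL and SPRR2A thus hold the AP-1 word and IL6 and CXCL1 the NF-κB word in these windows. The CXCL8 window also holds tggaatttcc, which departs from the NF-κB consensus only at its first base and was therefore not counted. The absence of a word here is thus not the absence of a site. A match describes letters and is no evidence of binding. Binding at these promoters was not measured in these libraries.

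Of 26 matrix protease and plasminogen activation genes, 9 were called lower (34.6%) and 1 was higher in siMLK4 cells, 16 were not called, and the list median was −0.13. SERPINB2, the plasminogen activator inhibitor PAI-2, had 2972, 3635 and 4049 normalized reads in siNT and 599.5, 744 and 797 in siMLK4 cells (−2.23, SE 0.14, adjusted p = 4e-07). The interstitial collagenase MMP1 had 5976, 5928 and 4667 reads against 1215, 1683 and 885 (−2.12, SE 0.18), and the urokinase gene PLAU had 2224, 2532 and 2911 against 791, 599 and 1022 (−1.63, SE 0.15). Activators and inhibitors of plasminogen activation were lower together, and SERPINE2 (−1.70), TIMP3 (−1.39), PLAT (−1.31), MMP10 and ADAMTS1 were among the other called members. ADAMTS1 was not called without siNT replicate 1 or 2 or siMLK4 replicate 1 or 3 (−0.73 to −0.89) or with library totals. MMP14, a membrane-bound protease that activates MMP2, was higher, at 1626, 1399.7 and 1420.5 reads against 3027, 3057 and 2650.1 (0.95, SE 0.12, adjusted p = 7.5e-05). In the TGF-β and BMP list 5 of 36 were lower and 2 higher. INHBA, the subunit of activin A, had 2162, 2516 and 2704 reads against 468, 421 and 739 (−2.11, SE 0.20, adjusted p = 8e-06), and the secreted BMP antagonist GREM1 had 3477, 3927 and 3606 against 1078, 1177 and 1071 (−1.68, SE 0.11). FST, which binds activin, was lower by 1.40, so that the activin subunit and its antagonist moved in the same direction. TGFBR2 (−1.05) and BMP2 were lower as well, BMP2 not without siNT replicate 3 or siMLK4 replicate 2 (−0.74 and −0.73). The 2 higher members were the latent TGF-β binding proteins LTBP1 (1.15), whose call was lost without siMLK4 replicate 1 (1.07), and LTBP3 (0.82), which was not called after the GC correction.

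Adhesion to the basement membrane was split between genes that were lower and genes that were higher. Of 14 integrins, 2 were lower. ITGA2, the collagen-binding α2 chain, had 1456, 2377 and 2328 reads in siNT and 295, 327 and 366 in siMLK4 cells (−2.44, SE 0.25, adjusted p = 1.6e-05), and its partner ITGB1 had 8467, 10929.8 and 9588 against 5208, 6034 and 4712 (−0.85, SE 0.16). Of 33 laminins, collagens and other matrix genes, 5 were lower and 7 higher. The lower members include LAMB3, a chain of the epithelial laminin that anchors hemidesmosomes, at 32975, 37061 and 29245 reads against 14537, 15349 and 13890.0 (−1.17, SE 0.13). The hemidesmosomal collagen COL17A1 (−1.30, SE 0.14), the basement membrane linker NID2 (−1.45, SE 0.13) and LAMB1 were lower as well. COL4A2, a chain of basement membrane collagen IV, was higher, at 2269, 2511 and 2469 reads against 5878, 6554 and 5346 (1.27, SE 0.15, adjusted p = 6e-05). After the GC correction 2 of the 7 higher calls were left and all 5 lower ones, and 4 higher calls were left without siNT replicate 3.

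A number of squamous and basal keratinocyte genes were lower in siMLK4 cells. Of 22 keratins, 7 were lower (31.8%) and 0 higher, and 21 had a negative difference. Of 46 desmosome and cornified envelope genes, 13 were lower and 0 higher, and 42 were negative. The basal keratin KRT14 had 2742, 2515 and 2125 normalized reads in siNT and 980.2, 1167 and 842 in siMLK4 cells (−1.26, SE 0.16, adjusted p = 8.9e-05). The wound-induced keratin KRT6A had 5138, 5296 and 5490.2 reads against 2555, 2732 and 2431 (−1.03, SE 0.11), and its close copy KRT6B had 54.4, 46.8 and 39.5 against 2.54, 2.50 and 3.63 (−1.31, SE 0.12). KRT16, KRT23, KRT7 and KRT17 were the other called keratins. The call of KRT7 (−0.86) was lost without any 1 of the siNT doxorubicin libraries, siMLK4 replicate 1 or 2 or either vehicle replicate 2 (−0.65 to −0.92), and that of KRT17 (−0.82) without siNT replicate 3 or siMLK4 replicate 1 or 2 (−0.74 to −0.80) or with library totals. DSC3, a desmosomal cadherin, had 1501, 1972 and 1939 reads against 581, 748 and 602 (−1.41, SE 0.18), and PERP, a desmosomal membrane protein, had 11560.0, 11505 and 13423 against 4828, 4589 and 5642 (−1.27, SE 0.12). The kallikrein KLK6 (−1.56), the elastase inhibitor PI3 (−1.36) and the cornified envelope precursors SPRR2E (−1.27) and IVL were lower in the same list. SPRR2A, SPRR2D, SLPI, TGM2, PKP1, PPL and SBSN were the remaining calls. SLPI was not called without any 1 of the doxorubicin libraries or without either vehicle replicate 2 (−0.88 to −1.06), nor with the replicate number as a block (limma adjusted p = 0.0146), PPL not without siNT replicate 3 (−0.74) or with library totals (−0.73) and SBSN not without siMLK4 replicate 1 (−0.74). Members of the KRT6, KRT14 to KRT17 and SPRR2 families are near-identical in sequence, and reads could have been split between them in counting.

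S100 proteins, small calcium-binding proteins abundant in stratified epithelia, had 4 of 14 genes lower and 0 higher. S100A9 had 1754, 1197 and 1796 reads in siNT and 802, 660.4 and 853 in siMLK4 cells (−0.97, SE 0.16, adjusted p = 0.00068), and its call held without each library in turn. The calls of S100A14 (−1.38), S100A8 (−0.92) and S100A16 (−0.87) were each lost without siNT replicate 1 or 3 or siMLK4 replicate 1 or 2, with values of −1.13 to −1.39, −0.76 to −0.95 and −0.71 to −0.86. Of 29 epithelial and mesenchymal identity genes, 3 were lower and 0 higher. VIM, the mesenchymal intermediate filament vimentin, had 150.4, 121 and 137 reads against 21.2, 23.3 and 26.3 (−1.48, SE 0.14), and SOX9, a progenitor transcription factor, had 876, 975 and 1009 against 332, 420.3 and 370.2 (−1.24, SE 0.15). The third, SNAI2 (−0.87), was not called without siNT replicate 3 or siMLK4 replicate 1 or 2 (−0.67 to −0.81). Of 21 YAP-TAZ target genes, NT5E (−1.44, SE 0.15) and ANKRD1 (−1.35, SE 0.25) were lower.

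Metabolic lists held both lower and higher genes. Of 25 sterol genes, 3 were lower and 1 higher. IDI1, an isomerase of the mevalonate pathway, had 7355, 7476 and 7369 reads in siNT and 3249, 3211 and 3406 in siMLK4 cells (−1.16, SE 0.10, adjusted p = 4.2e-06). HMGCS1, the synthase at the start of that pathway, was lower by 0.95. The higher member TM7SF2 (0.83) was not called after the GC correction or without siNT replicate 2 or siMLK4 replicate 3 (0.73 and 0.75). Of 31 NRF2 targets, 3 were lower and 1 higher. NQO1, a quinone reductase that can act on doxorubicin, had 8618, 7356 and 8490.2 reads against 3448, 2944 and 3942 (−1.24, SE 0.15), and the efflux transporter ABCC3 had 718, 803 and 823 against 319, 298 and 345 (−1.16, SE 0.12). These are the 2 called genes of the 19 doxorubicin targets, carriers and reductases. IDH1 was the NRF2 target that was higher (0.92, SE 0.11).

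Glycolysis and hypoxia genes counted 5 lower and 2 higher of 40, with the phosphofructokinases in opposite directions. The muscle form PFKM had 761, 836 and 852 reads in siNT and 379.9, 414 and 361 in siMLK4 cells (−0.99, SE 0.10), whereas the liver form PFKL had 599.8, 608 and 468 against 1105, 1205 and 1112 (0.97, SE 0.11). The oxygen sensor EGLN3 (−1.18), the lactate transporter SLC16A1 (−0.90), P4HA1 and HK2 (−0.88) were the other lower genes. P4HA1 was not called without siNT replicate 2 or siMLK4 replicate 3 (−0.75 and −0.72), with library totals or after the GC correction. HK2 was not called without any 1 of the siNT doxorubicin libraries or without siMLK4 replicate 1 or 3 or either vehicle replicate 2 (−0.62 to −0.95), nor with library totals. Of 42 ribosome biogenesis genes 3 were lower and 0 higher, with a list median of −0.35. LYAR, a nucleolar growth regulator, had 847, 656 and 843 reads against 245, 209 and 313 (−1.45, SE 0.14), and NOLC1 (−1.01) and DKC1 (−0.75) were the other 2. Of 30 heat shock genes, HSP90B1 (−0.82) and DNAJA4 (−0.81) were lower, and both calls, like that of DKC1, were lost with library totals. DNAJA4 was also not called without siNT replicate 1 or 2 or siMLK4 replicate 1 or 3 (−0.67 to −0.80), nor DKC1 without siNT replicate 2 or 3 or siMLK4 replicate 1 or 2 (−0.68 to −0.73), with TMM scaling or after the GC correction.

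Several of the lowest genes belong to no block above. EIF3J, a loosely bound subunit of the translation initiation factor eIF3 (chr15:44537125-44563029), had 9063, 7875 and 9601 normalized reads in siNT and 1599, 1498 and 1857 in siMLK4 cells (−2.38, SE 0.12, adjusted p = 1.1e-07). EIF3E (−0.76) was the only other call among 43 initiation factors, and it was lost without siNT replicate 3 or siMLK4 replicate 1 or 2 (−0.69 to −0.74), with TMM scaling, with library totals or after the GC correction. The list median was −0.31, 36 members were negative, and 16 were lower and 0 higher at an adjusted p under 0.05, which 12.1% of all genes reached in the lower direction. ACSL4, which activates arachidonic acid (chrX:109624244-109733403), had 834, 1027 and 784 reads against 116, 163 and 121 (−2.35, SE 0.13), and POLR2M, a subunit of a form of RNA polymerase II (chr15:57706695-57782762), had 443, 496 and 661 against 58.5, 61.7 and 92.5 (−2.30, SE 0.16). The BMP receptor kinase ACVR1 had 345, 404 and 349 reads against 65.3, 59.2 and 59.0 (−1.94, SE 0.11). HEPHL1 (−2.02), GRAMD1B (−1.998), TCEAL4 (−1.98) and the arginine deiminase PADI2 (−1.91) completed the 15 lowest genes together with those described above. The differences of EIF3J and ACSL4 were thus close in size to that of MAP3K21.

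Seed matches of the siRNAs were more frequent in the 3′UTRs of the lower genes. At least 1 match was found in 280 of 440 lower genes with an annotated 3′UTR (63.6%), in 176 of 428 higher genes (41.1%) and in 6014 of all 13583 (44.3%). Per siRNA, the share among the lower genes was 22.3%, 19.3%, 35.2% and 26.6% for siMLK4_1 to siMLK4_4, against 17.6%, 11.4%, 17.3% and 20.4% of all genes. The 3′UTRs of the lower genes were longer, with a median of 1615 bases against 1310 for all genes, yet the lower genes also had the higher share within each of 5 equal classes of 3′UTR length, for example 20.3% against 7.83% in the shortest and 97.1% against 85.3% in the longest. Among the genes named above, EIF3J holds 1 match of siMLK4_2 and 2 of siMLK4_3, ACSL4 3 of siMLK4_2, ITGA2 1 of siMLK4_2, IL24 1 each of siMLK4_1 and siMLK4_4, and INHBA 1 of siMLK4_3. Matches also occur in ERK, growth factor and cytokine genes, with 2 of siMLK4_1 in DUSP6 and 1 match each in MYC, AREG, IL1A and IL1B. Genes without a match stand beside them in the same lists. IL6, CXCL8, IL1RL1, SERPINB2, PLAU, KLK6, VIM, LYAR and FOSL1 hold none. Of the called genes named by rule, 53 of 94 lower (56.4%) and 21 of 56 higher ones (37.5%) hold at least 1, among the latter BMF. The length classes do not match base composition, and the median transcript GC content was 46.5% for the lower and 48.7% for all genes. These shares describe sequences, and how much of any difference comes from seed pairing was not tested.

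Longer identity to an siRNA was searched for in all transcripts. Besides MAP3K21, 15 genes of the table share a run of at least 14 bases with the target sequence of 1 siRNA, and 5 of these (ACVR1, POLR2M, SRRT, SUMO3 and RAB10) were called lower and 0 higher. The 19-base stretches of these 5 and of FAXC, which holds the longest run, are shown with the run in capitals:
ACVR1, siMLK4_2, coding sequence: atGAGAAGCCCAAGGTcaa
POLR2M, siMLK4_2, 3′UTR: AGGAGAAGCCCAAGctaac
SRRT, siMLK4_2, coding sequence: AGGAGAAGCCCAAGGaaga
SUMO3, siMLK4_2, coding sequence: AGGAGAAGCCCAAGGaggg
RAB10, siMLK4_4, coding sequence: AGAACAGATTGCAAgggag
FAXC, siMLK4_1, 3′UTR: GGAAAGATGCTCAGAGAGt
ACVR1, POLR2M and SRRT match their siRNA at 17 of 19 positions, RAB10 at 16, SUMO3 at 15 and FAXC at 18. FAXC, chosen for its sequence after its value was seen like SRRT, SUMO3 and RAB10, had a difference of 0.06 (SE 0.10) and was not called. Among the 10 that were not called, DNMT3A, also named after its value was seen, had a 15-base run with siMLK4_2 and a difference of −0.68 (SE 0.14, adjusted p = 0.0031) that missed the fold threshold. The cleavage of these transcripts was not measured.

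**Figure D3:**
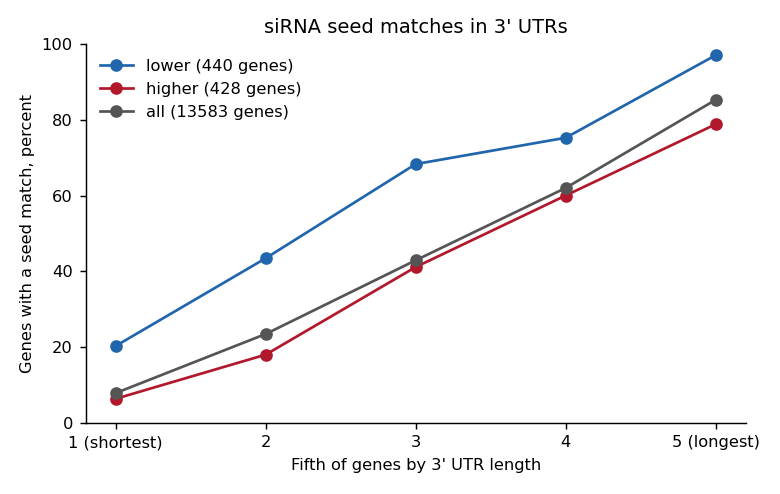
Percent of genes whose 3′UTR holds a seed match of at least 1 of the 4 siRNAs (y axis), in 5 equal classes of genes by 3′UTR length (x axis), for genes lower (blue, 440) and higher (red, 428) in siMLK4 cells with doxorubicin and for all genes (grey, 13583). The blue line lies above the grey one in every class, at 68.3% against 42.9% in the middle one.

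The higher genes include some of the G1 to S transition. Of 16 G1 cyclins and CDK inhibitors, 4 were higher and 1 was lower. CCNE1, cyclin E1 (chr19:29811991-29824312), had 3397, 3698 and 2471 normalized reads in siNT and 7263, 7924 and 5973 in siMLK4 cells (1.14, SE 0.17, adjusted p = 0.00032), and CCNE2 had 781, 828 and 768 against 1709, 1835 and 1671 (1.08, SE 0.12, adjusted p = 3.7e-05). Cyclins E activate CDK2. The higher list members also include inhibitors of the earlier CDK4 and CDK6, CDKN2C with 879, 718 and 474 reads against 1576, 1881 and 1240.2 (1.14, SE 0.19) and CDKN2D (0.87, SE 0.14), which was not called after the GC correction. The A-type cyclin CCNA1 was the lower member (−1.39, SE 0.20). E2F1 had 1263, 1045 and 862 reads against 2130.1, 2095 and 1829 (0.91, SE 0.16, adjusted p = 0.001), and it and E2F2 (0.78) were the 2 called of 48 replication and E2F genes. E2F2 was not called after the GC correction or without siNT replicate 3 or siMLK4 replicate 1 or 2 (0.64 to 0.78).

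Few checkpoint and mitotic genes passed the test. WEE1, the kinase that holds CDK1 inactive before mitosis (chr11:9573670-9593457), had 1491, 1571 and 1377 reads in siNT and 3880.2, 3897 and 3731 in siMLK4 cells (1.34, SE 0.09, adjusted p = 8e-07). H2AX, the histone that is phosphorylated at DNA breaks, had 403, 272 and 302 reads against 729, 639 and 809 (1.05, SE 0.17, adjusted p = 0.00053). These 2 were the called genes among 23 of double-strand break signalling, both were higher, and the list median was 0.06. Of 55 G2 and mitosis genes 3 were higher and 0 lower, but 24 had an adjusted p under 0.05 in the higher direction and 0 in the lower, with a list median of 0.33. Of all genes, 12.7% and 12.1% reached that p in the higher and the lower direction. CCNF, a cyclin that recruits substrates for ubiquitination, had 726, 745 and 657 reads against 1729, 1651 and 1577 (1.16, SE 0.11, adjusted p = 8.5e-06). The kinesins KIF20A (0.80) and KIF18A (0.76) were the other 2, and KIF20A was not called without siNT replicate 1 or 2 or siMLK4 replicate 1 (0.75, 0.75 and 0.78), nor KIF18A without siNT replicate 1 (0.70). The G2 and mitosis count rose to 5 after the GC correction and to 6 with library totals.

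Base composition moved with the higher genes. Their transcripts had a median GC content of 57.7%, against 46.5% for the lower and 48.7% for all genes. The slope of a library's values on GC content, per 10 percentage points, was 0.0162, −0.0718 and −0.100 in the siNT and 0.0655, 0.0541 and 0.0329 in the siMLK4 libraries with doxorubicin, without overlap. After removal of this trend in each library, 364 genes were higher and 486 lower, and 318 of the higher and 443 of the lower genes were shared with the calls reported here. The share of reads from the mitochondrial genome was also higher in each siMLK4 library, at 3.84%, 4.56% and 4.75%, than in the siNT libraries, at 3.57%, 2.62% and 3.52%. The part of either measure in the gene differences beyond the corrected counts was not tested.

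**Figure D4:**
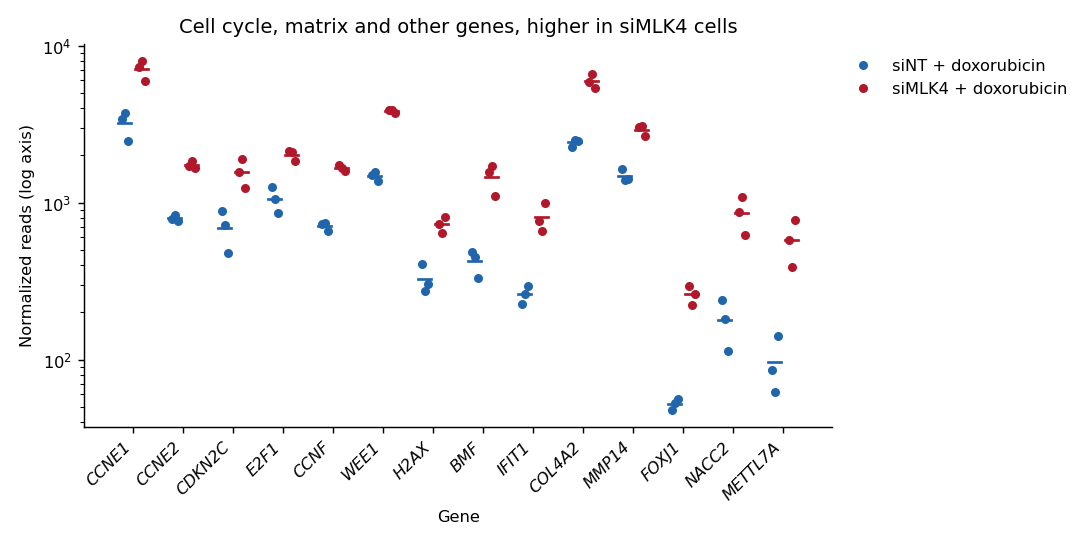
Normalized reads (log axis) of 14 genes higher in siMLK4 (red) than in siNT (blue) cells with doxorubicin; points are libraries and bars are group means. All siMLK4 points lie above all siNT points of the same gene, from WEE1 with a narrow spread (3731 to 3897 against 1377 to 1571 reads) to METTL7A with a wide one (389 to 769 against 62.1 to 142).

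Outside the cell cycle, the highest genes had varied functions. METTL7A, a membrane-bound methyltransferase of lipid droplets (chr12:50923472-50932510), had 85.8, 62.1 and 142 reads in siNT and 577, 389 and 769 in siMLK4 cells (2.11, SE 0.26, adjusted p = 7e-05), a mean 5.99-fold that of siNT. The transcriptional repressor NACC2 had 239, 181 and 113 reads against 865, 1085 and 623 (2.004, SE 0.20). BMF, a BH3-only protein that opposes pro-survival BCL2 proteins (chr15:40087890-40108892), had 487, 448 and 333 reads against 1562, 1714 and 1101 (1.66, SE 0.16, adjusted p = 1e-05). BMF was the 1 higher gene among 30 BCL2 family and caspase genes, and CASP4, an inflammatory caspase, was the 1 lower gene (−0.96, SE 0.13). FOXJ1, the master transcription factor of motile cilia (chr17:76136333-76141245), had 48.0, 52.9 and 55.8 reads against 293, 223 and 262 (1.65, SE 0.14). CRIP2 (1.66), PSKH1 (1.59), PIGQ (1.55), SESN3 (1.53), INPP5A (1.52), TTYH3 (1.45), IFIT1 (1.45), SLC30A3 (1.44), DMBX1 (1.43), GASK1B (1.40) and ANK1 (1.40) were the rest of the 15 highest genes with at least 100 normalized reads. In PIGQ, siNT replicate 3 was low, at 30.4 against 96.9 and 90.6 in the other siNT libraries. The call of SESN3 was lost without siNT replicate 3 or siMLK4 replicate 1 or 2 (1.19 to 1.44).

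Interferon-stimulated genes were higher in small numbers, with 3 of 56 called higher, 0 lower and a list median of 0.24. IFIT1, which binds foreign RNA caps, had 226, 263 and 293 reads in siNT and 768, 658 and 988 in siMLK4 cells (1.45, SE 0.14, adjusted p = 1.2e-05), and IFI27 had 51.7, 52.9 and 46.6 against 181, 152 and 173 (1.18, SE 0.11). HELZ2 (0.89) was the third, and its call was lost after the GC correction. Of 42 Notch and WNT genes, 4 were higher and 1 lower. The ligand WNT7B had 269, 246 and 244 reads against 609.7, 735 and 434 (1.06, SE 0.16), whereas the related ligand WNT7A was lower (−0.77, SE 0.12), a call lost without siMLK4 replicate 1 or 3 (−0.73 and −0.75) or with library totals (−0.72). The Notch feedback inhibitor NRARP (0.97, SE 0.13) was higher too. TCF7L1 (0.77) and JAG2 (0.75) were not called after the GC correction, and 2 of the 4 higher calls were left without siNT replicate 2. TCF7L1 was also not called without siMLK4 replicate 3 (0.69), nor JAG2 without siNT replicate 3 or siMLK4 replicate 1 or 2 (0.65 to 0.73). In the MLK-JNK list itself, 0 of 16 members were lower and 2 were higher, the JNK scaffold genes MAPK8IP2 (0.97, SE 0.13) and MAPK8IP1 (0.76), and 1 of them was left after the GC correction. MAPK8IP1 was not called without siNT replicate 1 or 2 or siMLK4 replicate 3 (0.65 to 0.75).

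Repair and housekeeping lists had few or no calls. Of 24 end joining genes, 0 were called by limma or by limma-voom on the recovered reads, and 7 lower and 2 higher members had an unadjusted p under 0.05, which 17.6% of all genes reached in the lower and 19.5% in the higher direction. Their list median was 0.03, and it was −0.02 after the GC correction. XRCC5, which encodes Ku80, was the member with the most reads, with 10518, 10780.1 and 11322 reads in siNT and 8466, 8143 and 9116 in siMLK4 cells (−0.34, SE 0.10, adjusted p = 0.02). Of 37 homologous recombination and Fanconi genes, RECQL4 was higher (0.91, SE 0.16) and 0 were lower. It was not called after the GC correction or without siNT replicate 3 (0.75). Of 31 p53 targets, 2 were lower (PLK2 and PLK3) and 1 higher (TP53INP1, 0.98). Library totals called 0 of the 2 lower members and TMM scaling lost PLK3. PLK2 was not called without siNT replicate 3 or siMLK4 replicate 2 (−0.73 and −0.71), nor PLK3 without siNT replicate 1 or 2 or siMLK4 replicate 2 (−0.67 to −0.75). Proteasome subunits had a list median of −0.27 with 0 of 40 called by limma or limma-voom, and 19 lower and 2 higher members had an unadjusted p under 0.05. Cytosolic ribosomal proteins (0 of 78), aminoacyl-tRNA synthetases (0 of 20) and ATF4 targets (0 of 31) also had no call by either test, with 5, 6 and 2 lower and 0, 1 and 3 higher members at an unadjusted p under 0.05. In the respiratory chain, 1 of 75 nuclear-encoded subunits was called, NDUFB9 (−1.10, SE 0.20).

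A part of the difference under doxorubicin was present without drug. In vehicle, siMLK4 and siNT cells differed in 961 genes (5.65% of those tested), of which 534 were lower (3.14%) and 427 higher (2.51%). Library totals, which shifted the vehicle differences by a median of 0.12 over all genes, turned the split to 346 lower and 632 higher. On log2 of normalized reads plus 1 it was 718 and 895. Of the genes called under doxorubicin, 426 were also called in vehicle in the same direction and 0 in the opposite one. The shared genes were 288 lower ones, 57.8% of the lower genes under drug and 53.9% of those in vehicle, and 138 higher ones, 30.5% and 32.3%. This excess of lower shared genes was not seen with library totals, which gave 198 lower and 204 higher ones. The median difference in vehicle was −0.83 for the genes lower under drug and 0.53 for those higher under drug, against −0.96 and 0.90 under drug. Across all genes, which are not independent replicates, the 2 differences correlated with Pearson's r = 0.69, and they share no libraries. At an adjusted p under 0.05, 25.8% of all genes differed in vehicle in either direction (2217 lower and 2164 higher). Of the 524 genes called under drug and not in vehicle, 267 differed in vehicle at that p in the same direction as under drug.

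The test of the difference itself, the interaction, was passed by 47 genes (0.276%), with 30 negative and 17 positive values. This balance turned to 105 negative and 124 positive with the slope on transcript length as a covariate, and to 15 and 17 without siNT vehicle replicate 2. It depended on single libraries, since 0 genes passed without siMLK4 replicate 1, with 1856 at an unadjusted p under 0.05 against 2469 for all libraries. The number passing lay between 6 and 13 without 1 of the siNT doxorubicin libraries and was 16 without siMLK4 replicate 2 and 37 without replicate 3. It was 11 and 16 without siMLK4 vehicle replicates 1 and 2, and 12 and 28 without siNT vehicle replicates 1 and 3. PADI2 had the most negative value (−1.93, SE 0.22, adjusted p = 0.0016). It had 444, 590.4 and 678 reads in siNT and 119.6, 113 and 111 in siMLK4 cells with drug, whereas the vehicle libraries overlapped, at 54.0, 78.9 and 99.9 against 75.1, 71.7 and 85.4. RASSF10 (−1.62) and IDI1 (−1.13) likewise differed under drug and overlapped in vehicle. In the ERK feedback list, 2 of 18 members had a called interaction, both positive. DUSP6 had a positive interaction (1.53, SE 0.17, adjusted p = 0.0016), because its difference of −2.66 in vehicle was larger than that of −1.13 under drug, and ETV5 (1.61) was the other. The lower group of cytokines was mixed, with differences in vehicle of −2.31 for CXCL8, −1.64 for IL24 and −0.13 for IL6. IL6 had at most 4.70 normalized reads in each vehicle library, too few to show a difference there, and its interaction (−1.72, adjusted p = 0.011) and that of IL24 (−1.43, adjusted p = 0.015) missed the threshold. Across lists, the ERK feedback genes had 11 of 18 lower in vehicle with a median of −1.15, the desmosome and cornified envelope genes 15 of 46, the matrix proteases 9 of 26 and the interleukin ligands 4 of 19. The G2 and mitosis list had 0 called in vehicle and a median of 0.04, but also 0 called interactions. Of the 4 G1 cyclins and CDK inhibitors called higher under drug, 3 were also called higher in vehicle, and so were WEE1 and H2AX. This held for 2 of the 7 higher matrix genes and 1 of the 3 higher interferon-stimulated genes.

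**Figure D5:**
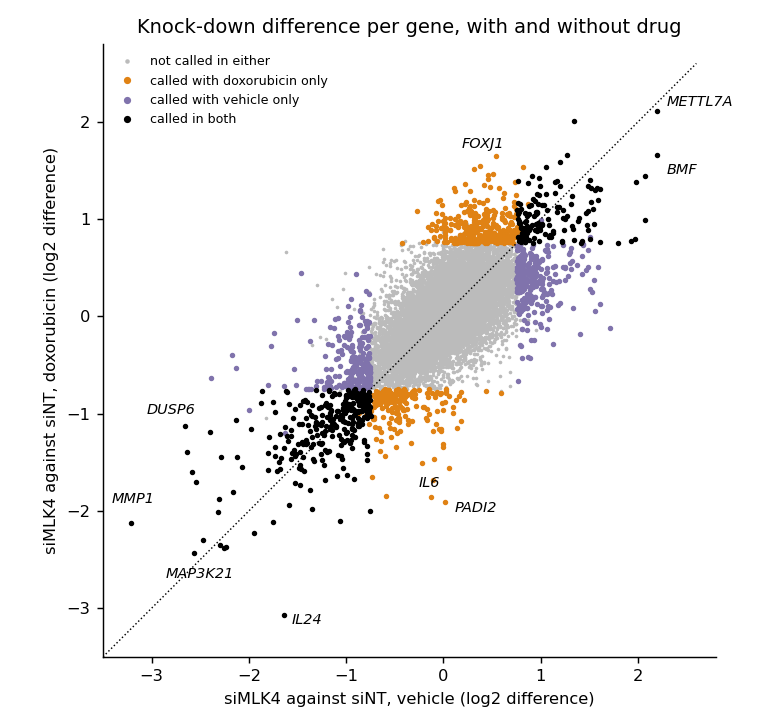
Log2 difference of siMLK4 against siNT cells with vehicle (x axis) and with doxorubicin (y axis) for all 17013 genes; colours mark calls in both conditions (black), with doxorubicin only (orange), with vehicle only (purple) and in neither (grey), and the dotted line is equality. MAP3K21 and METTL7A lie near the line, whereas PADI2 differs under drug and lies near 0 in vehicle, as does IL6, which had almost no reads there, and DUSP6 differs more in vehicle.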

How the data were processed

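Poly(A) mRNA was sequenced in 12 libraries of HCC1806 cells, 3 for each combination of siNT or siMLK4 with vehicle or 1 μM doxorubicin. According to the methods and the submitters' processing notes, the authors trimmed reads with Trimmomatic 0.39, aligned them with HISAT2, removed optical duplicates, counted them per gene on the reverse strand with HTSeq 0.6.0 and processed the counts with DESeq2 1.26.0. The notes list hg19 and the methods GRCh38, and the table holds no coordinates. Those given here come from GENCODE 44 (GRCh38), matched by Ensembl ID for 16957 of 17013 genes. The deposited values are log2-scaled, that is, counts that the authors normalized by size factors and variance-stabilized. Inversion of the transformation gave whole reads for 100% of the values, within a tolerance of 0.05, and size factors from 0.852 to 1.20.

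Differences were tested on the deposited values with limma 3.58.1 in R 4.3.3 (lmFit, eBayes with a variance trend), with 4 group means over all 12 libraries. Benjamini-Hochberg adjustment covered all genes. Calls required an adjusted p below 0.01 together with a log2 difference beyond 0.75 in either direction, the thresholds of the study. A count model was planned, but the deposited unit is log2. limma-voom on the recovered reads, which called 1466 genes, served as an alternative, and so did log2 of normalized reads with a pseudocount of 1. On simulated data for this comparison (17013 genes, 200 changed), 93% of 100 genes with a log2 fold of 2, 49% of 100 with a log2 fold of 1 and 1 of 16813 unchanged genes were called. The changed genes were drawn only from genes above a minimum mean of normalized reads. The 2 shares therefore do not cover the genes with the fewest reads. Doxorubicin libraries of a group differed beyond counting noise (chi-square of 7.0 to 25.2 per degree of freedom).

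Named were MAP3K21, the 15 lowest and 15 highest called genes whose groups do not overlap and with at least 100 normalized reads, up to 4 called genes per list and direction, up to 6 genes per direction of the interaction, and genes named by the study. Further called list members, and SRRT, SUMO3, RAB10, FAXC and DNMT3A, were named after their values were seen. The lists, members and tests were chosen with earlier results of these data known, and IL6, CXCL8, CXCL1, CXCL6, IL12A, TNFSF15, IL24, CD274, VIM and SOX9 were picked by the study from these samples. Same-numbered siNT and siMLK4 libraries with doxorubicin deviated together (correlations of their deviations from the group means of 0.19, 0.516 and 0.559), a pairing read from the values, whereas those with vehicle did not (−0.723, 0.325 and −0.523), and the replicate number was used as a block as an alternative. Other alternatives were TMM scaling, library totals, at least 10 reads in every library (13295 genes), the 6 doxorubicin libraries alone, other thresholds, leaving out each library, a transcript length slope as covariate, no variance trend and, chosen after seeing the data, removal of each library's trend on transcript GC content (lowess). The floor of detection was 3 reads per library and covers counting error only. Some genes, and 2 gene families formed after values were seen, are not reported here.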

Additional observations from a re-analysis of the deposited data

Results flagged for a closer look

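For 16 named genes the difference between siMLK4 and siNT cells was itself different with doxorubicin and with vehicle, by the interaction term of the limma fit, and values are the log2 difference with doxorubicin minus that with vehicle. It was −1.926 for PADI2, −1.832 for the receptor kinase KIT, −1.618 for RASSF10, −1.586 for BASP1, −1.509 for NYNRIN, −1.427 for PLEKHG4B, −1.239 for GRAMD1B, −1.154 for TCF7L1 and −1.129 for IDI1. It was 1.131 for DVL1, 1.172 for CXCL10, 1.187 for the mitochondrial pyruvate carrier gene MPC1, 1.342 for SAPCD2, 1.461 for GPR153, 1.53 for DUSP6 and 1.608 for ETV5. All 16 have an adjusted p under 0.01 in the fit of all libraries, and none passed without siMLK4 doxorubicin replicate 1, where 0 genes of the table passed.

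KIT, with the most negative interaction among the genes called in vehicle and not with doxorubicin, had 66.9, 68.5 and 77.5 normalized reads in siNT and 402, 338 and 281 in siMLK4 cells with vehicle, but 117, 144 and 158 against 128, 108 and 138 with doxorubicin, where the groups overlapped. NYNRIN, BASP1 and GPR153 were also called in vehicle and not with doxorubicin. CXCL10 shows the opposite arrangement, with 4.70, 2.08 and 3.37 reads against 4.01, 4.98 and 6.49 in vehicle and a clear separation with doxorubicin. Its vehicle reads lie near the floor of detection, however, and are too few to show a difference there.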

How the results depend on the processing

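No called gene named by the rule changed sign under an alternative, but the balance of lower and higher genes turned under some, as given here and with the counts above. The count of genes called with doxorubicin (950) was 1466 with limma-voom, 4219 with only an adjusted p under 0.05 and 358 with an absolute log2 difference over 1. The vehicle count (961) was 1483 with limma-voom, 1613 on log2 of normalized reads plus 1, 4381 at an adjusted p under 0.05 and 381 with a difference over 1. Genes called in the same direction in both conditions (426) numbered 652, 671, 2287 and 165 under the same 4 settings. The interaction count (47) was 29 with limma-voom, 204 at an adjusted p under 0.05 and 229 with the transcript length slope as covariate. With TMM scaling 472 genes were lower and 481 higher with doxorubicin, and with at least 10 reads in every library 458 and 371. With limma-voom 723 genes were lower and 743 higher with doxorubicin, and 697 and 786 in vehicle. The adjusted p under 0.05 alone gave 2061 and 2158 with doxorubicin, and leaving out siMLK4 doxorubicin replicate 3 gave 552 and 569. Leaving out 1 library gave 761 (without siMLK4 doxorubicin replicate 1) to 1121 (without siMLK4 doxorubicin replicate 3) genes with doxorubicin, 929 to 1016 in vehicle, 384 to 430 in both, 0 to 37 for the interaction and −2.47 to −2.28 for MAP3K21. With the replicate number as a block, 945 genes were called with doxorubicin, 951 in vehicle, 423 in both and 40 for the interaction, and the block within the 6 doxorubicin libraries called 991 and kept all 950. The block over all 12 libraries lost the calls of CSF2 and SLPI (adjusted p = 0.0125 and 0.0146) and changed no other call of a gene named in the text. Of the 150 named calls with doxorubicin, 20 were lost after the GC correction, 11 with library totals, 5 with TMM scaling and up to 21 without 1 library. The cause of these shifts was not tested. Depth limits the genes with few reads, whose differences the variance-stabilized scale shrinks.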

Other observations

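4 further families were formed by symbol after values were seen, and their counts are descriptions. Of 92 cilium assembly and motility genes, 13 were higher and 2 lower in siMLK4 cells with doxorubicin, with a median log2 difference of 0.24 against 0.02 for all genes. Besides FOXJ1 they include ZMYND10 and DNAAF3, which help to assemble axonemal dyneins, and 12 were higher and 0 lower after the GC correction. In vehicle 10 were higher and 1 lower. The 2 lower calls with doxorubicin, CFAP97 and RSPH3, were also lost with library totals. Of 52 core and linker histone genes, 7 were higher and 0 lower, among them H3C10, H3C8 and H3C6, although the near-identical sequences of these genes can split reads and 4 of the 7 calls were made after the GC correction. The count was 3 without siMLK4 doxorubicin replicate 2, and H3C6 was lost without it (0.84) or without siNT doxorubicin replicate 3 (0.77).

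In the other direction, 5 of 11 clade B serpins, the family of protease inhibitors to which SERPINB2 belongs, were lower and 0 higher, with a median of −0.77. They are SERPINB2, SERPINB3, SERPINB4, SERPINB7 and SERPINB8, of which SERPINB3 and SERPINB4 are near-identical copies. Of 11 prostaglandin synthesis genes, 4 were lower and 0 higher, namely the cyclooxygenase PTGS2, the synthase PTGES and the phospholipases PLA2G4A and PLA2G4E. The call of PTGES was lost without siNT doxorubicin replicate 3 or siMLK4 doxorubicin replicate 1 or 2 (−0.71 to −0.88).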
